A study of Homo sapiens with 16 samples.

Results

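Replacement histones are the core histone variants that cells deposit outside DNA replication, and 7 genes of this kind were followed here: H2AZ1, H2AZ2, H2AX, H3-3A, H3-3B, MACROH2A1 and H2AJ. The genes were taken by name from the array annotation. All 7 had a probe that passed the filter on dim probes, and they are 7 of 10163 genes tested; of their 12 annotated probes, 11 were kept. The cells were MM1.S, an established line from human multiple myeloma, a tumour of antibody-secreting plasma cells, grown in log phase. Treated cells had received dexamethasone, a synthetic glucocorticoid that kills many myeloma cells, at 1 uM for 4 h, and untreated cells are the 0 h point of the same treatment. From both, total RNA and 3 pools of RNA from fractionated polysomes (pools A, B and C) were put on Illumina bead arrays. This gave 8 groups of 2 arrays, 16 arrays in all: treated and untreated pool A, pool B, pool C and total RNA. Polysomes are transcripts loaded with ribosomes, parted on a sucrose gradient by the number of ribosomes they carry. The labels do not say which gradient fractions make up a pool, so the pools have no order in what follows.

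Most histone genes are transcribed in S phase and give transcripts that end in a stem-loop without a poly(A) tail. Replacement histone genes are transcribed through the whole cell cycle, most have introns, and their transcripts are polyadenylated like those of other genes. Histone chaperones and remodelling complexes place their proteins at promoters, at gene bodies, at centromeres and at sites of DNA damage. The labelling kit primes with oligo(dT), so a stem-loop transcript is seen on these arrays only as far as it carries a poly(A) tail.

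On each array, 26.1 to 31.3% of probes had a detection p-value under 0.01, and the 2 arrays of a group correlated at r = 0.966 to 0.991 over the 10163 genes tested. All 8 plasma cell markers looked at (SDC1, TNFRSF17, IRF4, XBP1, PRDM1, MZB1, CD38 and SLAMF7) were detected on 16 of 16 arrays. Of the T cell, B cell, myeloid and fibroblast markers with a probe, CD2 was detected on 1 array and CD3D, CD3E, CD3G, MS4A1, PAX5, CD14, LYZ, CSF1R, COL1A1 and COL1A2 on 0. Of the erythroid markers, HBA1 was detected on 0 arrays and HBB on 16, at log2 levels of 6.35 to 9.85. No source says that the 2 arrays of a group came from separate cultures, so p-values measure only the spread between these arrays, which may be technical. An array also cannot tell fewer cells that hold a transcript from less of it in each cell. Levels are log2 normalized intensities of a gene's brightest kept probe, and a level of one gene is not set against that of another gene. A difference was called where limma's moderated test gave an adjusted p under 0.05, with Benjamini-Hochberg adjustment over all 10163 genes.

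The promoters below are shown because the 7 genes differ in the elements next to their start sites, and they come from RefSeq, build GRCh38.p14. Each line holds the 120 bases before an annotated start, 5′ to 3′ along the gene, and capitals mark the CCAAT box and TATAAA. A box on the opposite strand reads ATTGG. The first 3 genes, H2AZ1 (minus strand, chr4:99950276-99950395), H2AX (minus strand, chr11:119095466-119095585) and H3-3B (minus strand, chr17:75779780-75779899), have TATAAA. The last 2, H2AJ (plus strand, chr12:14774285-14774404) and MACROH2A1 at the outer of its 2 listed starts (minus strand, chr5:135399888-135400007), have 2 matches of CCAAT and none of TATAAA.
H2AZ1: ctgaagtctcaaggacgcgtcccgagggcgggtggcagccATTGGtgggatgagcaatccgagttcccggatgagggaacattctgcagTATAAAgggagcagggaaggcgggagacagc
H2AX: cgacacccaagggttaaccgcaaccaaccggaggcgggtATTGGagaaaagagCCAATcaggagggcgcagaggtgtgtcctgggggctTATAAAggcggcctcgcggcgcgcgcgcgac
H3-3B: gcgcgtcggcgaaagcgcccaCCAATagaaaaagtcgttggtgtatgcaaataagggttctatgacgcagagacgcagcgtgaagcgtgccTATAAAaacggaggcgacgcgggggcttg
H2AJ: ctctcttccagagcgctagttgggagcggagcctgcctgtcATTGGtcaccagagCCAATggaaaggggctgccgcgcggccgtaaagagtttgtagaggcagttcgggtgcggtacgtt
MACROH2A1: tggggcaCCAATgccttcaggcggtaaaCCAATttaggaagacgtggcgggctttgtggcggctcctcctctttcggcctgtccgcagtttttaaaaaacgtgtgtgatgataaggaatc
In the full windows of 300 bases (250 before and 50 after a start), read on both strands, CCAAT stood in 9 of the 11 windows of the 7 genes, against 34.6% of 35116 windows of all genes. Every gene had it in at least 1 window. TATAAA stood in 3 of the 11 windows, against 11.5% of all windows. These matches describe the sequence only. On the same build H2AZ2 lies at chr7:44826889-44848126 and H3-3A at chr1:226061831-226072019.

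After 4 h of dexamethasone no change of the 7 transcripts passed the test, in total RNA or in any pool: 0 of 28 comparisons of a gene were called. The background was low too, with 0.108% of all genes called in total RNA, 0.876% in pool A, 0.0295% in pool B and 0.0689% in pool C. At an unadjusted p under 0.05, 1 of the 28 passed by the brightest probe of each gene, H2AZ2 in pool B. The log2 differences, 4 h minus 0 h, ran from -0.24 (H2AX in pool A) to 0.73 (H2AZ2 in pool B).

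H2AZ1 and H2AZ2 encode the H2A.Z isoforms, which flank active promoters and differ by a few residues. In total RNA, H2AZ1 was at 14.10 and 14.00 on the treated arrays, against 14.08 and 14.17 on the untreated arrays. Its log2 difference was -0.07 (95% interval -0.45 to 0.30, adjusted p = 1), and in the pools it lay between 0.02 and 0.09. The values of the treated and untreated arrays overlapped. H2AZ2 was dim: 3 of the 8 treated arrays and 2 of the 8 untreated arrays had a detection p-value under 0.01. Its levels in pool B were 6.03 and 6.67 on treated arrays, against 5.46 and 5.79 on untreated arrays. The 2 groups did not overlap, as was so for 31.8% of all genes in pool B. The difference of 0.73 (95% interval 0.12 to 1.34) did not pass after adjustment (adjusted p = 0.639).

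H3-3A and H3-3B encode the same protein, H3.3, which marks transcribed genes and their promoters. H3-3A was at 14.58 and 14.51 on treated and at 14.39 and 14.45 on untreated total RNA arrays, a difference of 0.13 (95% interval -0.25 to 0.51, adjusted p = 1). H3-3B was at 9.59 and 9.47 on treated and at 9.72 and 9.68 on untreated total RNA arrays, a difference of -0.18 (95% interval -0.73 to 0.38, adjusted p = 1). The widest H3-3B difference was in pool A, 0.37 (95% interval -0.19 to 0.93, adjusted p = 0.603), where the 2 untreated arrays stood at 9.88 and 9.15. Within each gene the treated total RNA arrays did not overlap the untreated ones, as was so for 40.6% of all genes.

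H2AX, the variant phosphorylated around DNA breaks, was at 9.20 and 9.02 in treated total RNA, against 9.07 and 9.19 in untreated total RNA, a difference of -0.02 (95% interval -0.56 to 0.53). MACROH2A1, the H2A variant with an added macro domain that is found on silenced chromatin, was at 13.85 and 13.86 in treated total RNA, against 13.80 and 13.84 in untreated total RNA, a difference of 0.04 (95% interval -0.36 to 0.43). H2AJ, a mammalian H2A variant that builds up in senescent fibroblasts, was at 8.36 and 8.44 in treated total RNA, against 8.27 and 8.54 in untreated total RNA, a difference of -0.01 (95% interval -0.42 to 0.41). Each of these 3 had an adjusted p of 1. The intervals in total RNA of the 6 brighter genes leave room for changes of up to 0.73 on the log2 scale. Whether the response of a transcript in a pool differed from that in total RNA, or in pool C from that in pool A, was tested as an interaction. Of 28 such tests, 0 passed, as did 0% of all genes in each of the 4 interactions. At an unadjusted p under 0.05, 172 to 585 of all genes passed in an interaction, and 0 of the 7 did by their brightest probe. The second brightest MACROH2A1 probe differed by 0.52 in pool C, 4 h minus 0 h (limma, unadjusted p = 0.0225, adjusted p = 0.827). Its response in pool C exceeded that in total RNA by 0.68 and that in pool A by 0.62 (limma, unadjusted p = 0.033 and 0.0494). None of these passed after adjustment.

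**Figure D1:**
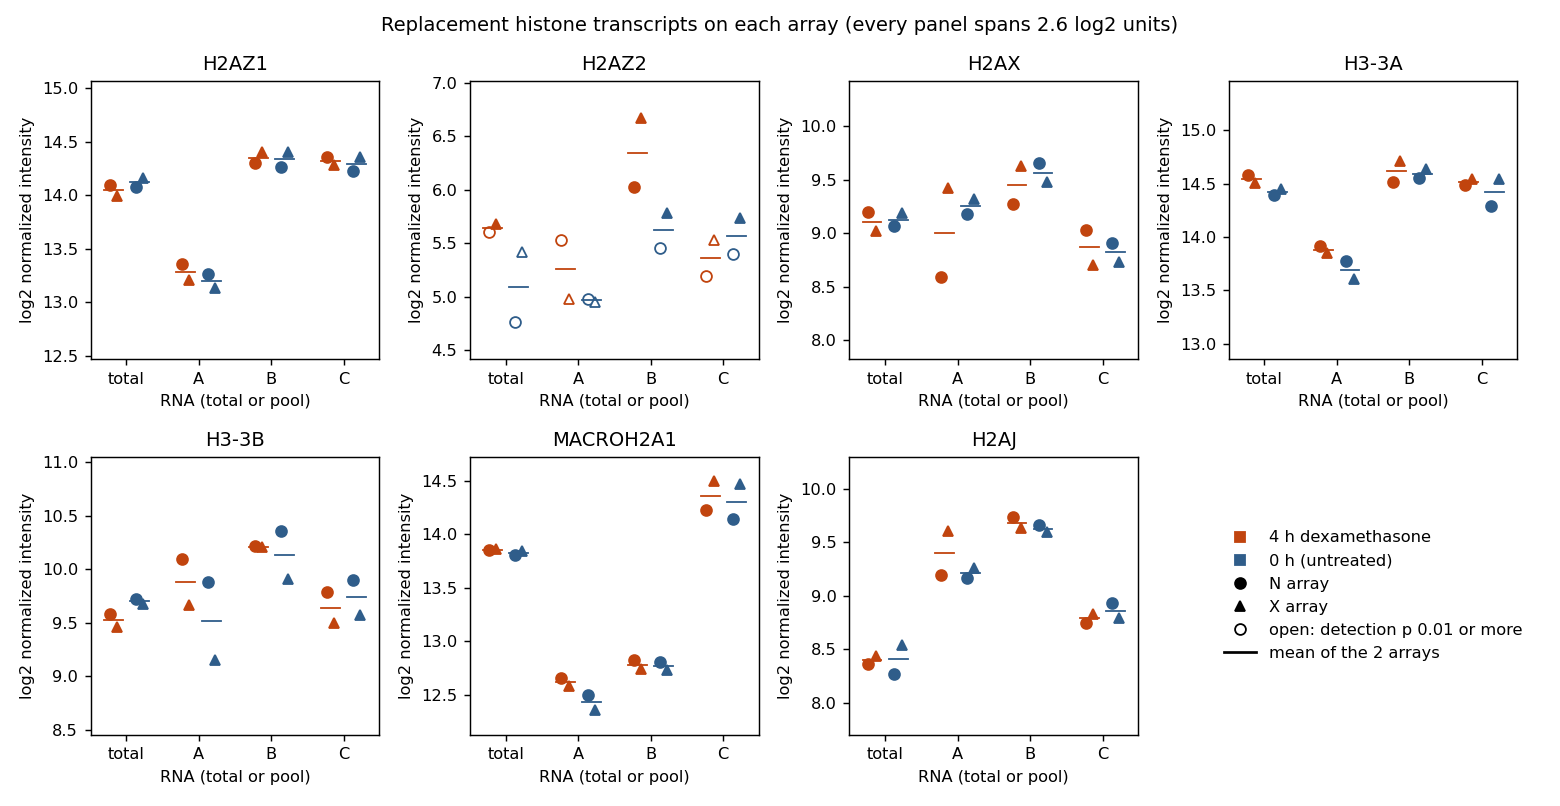
Log2 normalized intensity of each gene on every array, in total RNA and in pools A, B and C, with 4 h of dexamethasone to the left of 0 h in each pair. Circles and triangles are the 2 arrays of a group (named N and X in the files), open symbols had a detection p-value of 0.01 or more, and bars are means of 2 arrays. With the quantile normalization used here, MACROH2A1 is highest in pool C and H2AJ is highest in pool B, at both times. The order of pools B and C for H2AJ turned under median scaling.

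**Figure D2:**
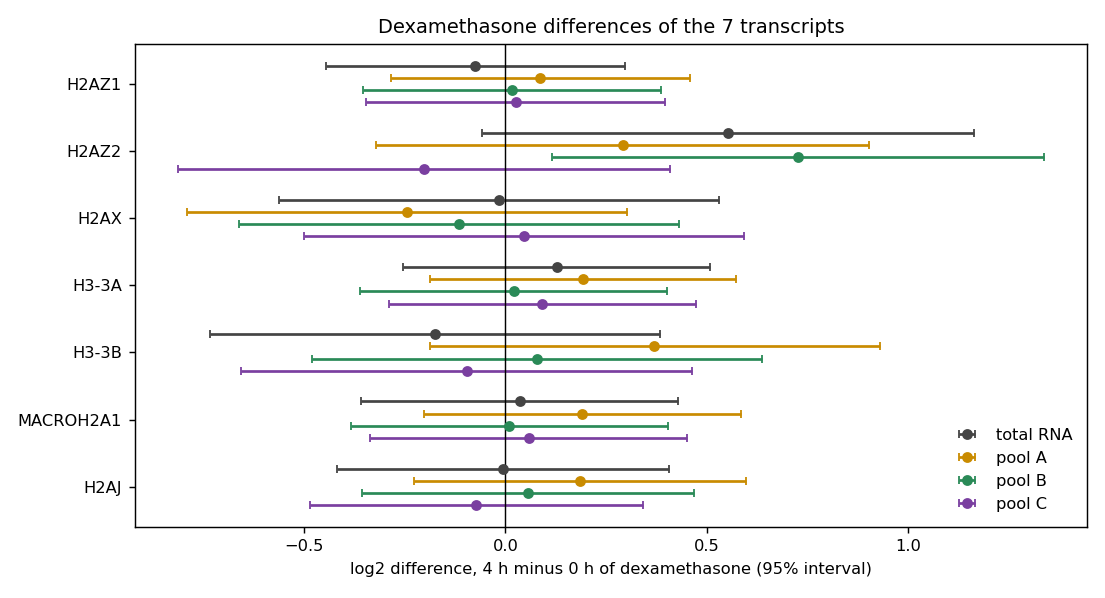
Log2 difference, 4 h minus 0 h, of the 7 transcripts in total RNA and in each pool, with the 95% interval of the limma fit. The H2AZ2 interval in pool B is the 1 that does not cross 0, and it did not pass the adjustment over all genes.

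Far more genes differed between the pools and total RNA, and between pools, than between treated and untreated cells. Of 21 comparisons of a pool with total RNA, 7 were called at 4 h (3 higher and 4 lower in the pool) and 6 at 0 h (2 higher and 4 lower). At 4 h, 4 of the 7 genes were called in pool A (background 45.9% of all genes), 3 in pool B (44.1%) and 0 in pool C (29.9%). At 0 h, 4 were called in pool A (48.6%), 2 in pool B (42.9%) and 0 in pool C (29.3%). Between pools, 10 of 21 were called at 4 h and 8 of 21 at 0 h. At 4 h these were 4 in pool C against A (56.2%), 3 in pool B against A (25.3%) and 3 in pool C against B (45.9%). At 0 h they were 3 in pool C against A (55.5%), 2 in pool B against A (24.9%) and 3 in pool C against B (44.5%). Read against these shares of all genes, counts over 7 genes show nothing particular to them. Which gene went which way is given below. Arrays that do not overlap were common too. Within a time, this was so for 55.7% (pool B against A at 0 h) to 76.9% (pool B against total RNA at 4 h) of all genes.

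Signs in the pool comparisons depended on the scaling. Median scaling set each array by the median of all 47323 probes. Of these, 26.1 to 31.3% were detected on an array, so most of them were not above background. It put the median log2 difference of the genes tested at 1.16 for pool C minus A at 0 h, where quantile normalization gave 0.26. For pool A minus total RNA at 0 h it put that median at -0.87, where quantile normalization gave -0.19. Of the 10 calls between pools at 4 h, 7 were higher and 3 lower with quantile normalization, against 8 calls, all higher, with median scaling. At 0 h the split was 6 higher and 2 lower, against 13 higher and 0 lower with median scaling, and the calls against total RNA at 0 h were 2 higher and 4 lower, against 2 higher and 6 lower. For each of the 7 genes, at least 1 called pool difference is therefore also given less the median difference of all genes, under quantile normalization, median scaling and the deposited value table.

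MACROH2A1 had its highest levels in pool C. They were 14.23 and 14.49 at 4 h, and 14.14 and 14.47 at 0 h. They were 12.66 and 12.58 in pool A at 4 h and 12.50 and 12.36 at 0 h, and in pool B 12.82 and 12.74 at 4 h, and 12.81 and 12.73 at 0 h. Every pool C array was above every total RNA array, and every total RNA array was above every array of pools A and B. Pool C exceeded pool A by 1.74 ± 0.18 at 4 h (SE, n = 2 arrays each, adjusted p = 4.64e-06) and by 1.88 ± 0.18 at 0 h (adjusted p = 2.63e-06), which are 3.35-fold and 3.67-fold. Pool C exceeded pool B by 1.58 at 4 h (adjusted p = 2.34e-05) and 1.53 at 0 h (adjusted p = 2.86e-05). Pool A differed from total RNA by -1.24 at 4 h (adjusted p = 0.000164) and -1.39 at 0 h (adjusted p = 6.61e-05), and pool B differed from it by -1.08 at 4 h (adjusted p = 0.000518) and -1.05 at 0 h (adjusted p = 0.000629). Pool C was above total RNA by 0.51 at 4 h (adjusted p = 0.0522) and 0.48 at 0 h (adjusted p = 0.0623), which did not pass. Pool B minus A was 0.16 at 4 h and 0.34 at 0 h (adjusted p = 0.554 and 0.191), which did not pass, although the 4 pool B arrays lay above the 4 pool A arrays. It passed at 0 h under median scaling (0.89, adjusted p = 0.00774) and was -0.18 at 4 h in the value table (adjusted p = 0.495).

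Neither other scaling turned a called sign of MACROH2A1. Less the median of all genes, MACROH2A1 in pool C minus A at 4 h was 1.54 with quantile normalization, 0.89 with median scaling and 1.13 in the value table. Pool C minus B at 4 h was 1.44, 0.72 and 1.16, and pool A minus total RNA at 4 h was -1.08, -0.59 and -0.76, on the same 3 scales. In pool C minus A, 93.6% of all genes at 4 h and 95.6% at 0 h ranked at or below it.

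The 3 kept probes of MACROH2A1 gave pool C above pool A by 1.74, 3.07 and 3.40 at 4 h and by 1.88, 2.45 and 3.26 at 0 h, and all 6 passed when probes were tested one by one. They disagreed on pool B. The brightest probe and the second probe gave pool B minus total RNA as -1.08 and -1.11 at 4 h, but the dimmest gave 0.28 (adjusted p = 0.57). The second and the dimmest probe also called pool B above pool A, by 0.91 and 1.74 at 4 h (adjusted p = 0.00516 and 0.00358) and by 0.72 and 1.25 at 0 h (adjusted p = 0.0193 and 0.022). The mean of the probes called it too, by 0.94 at 4 h and 0.77 at 0 h (adjusted p = 0.00256 and 0.0084). The probes also disagreed on pool C minus total RNA, which was 0.51, 1.05 and 1.95 at 4 h, in the same order of probes, with adjusted p = 0.0641, 0.00244 and 0.00183. The dimmest probe had levels of 5.25 and 5.55 in pool A at 4 h, with neither array detected, so its differences from pool A rest on values not above background. The fourth annotated probe was detected on 0 of 16 arrays. Which transcript each probe reads was not looked at here.

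H2AJ was high in pools A and B with quantile normalization. Its levels were 9.73 and 9.63 in pool B at 4 h and 9.66 and 9.59 at 0 h, and in pool A 9.19 and 9.60 at 4 h, and 9.16 and 9.26 at 0 h. In pool C they were 8.75 and 8.83 at 4 h, and 8.93 and 8.79 at 0 h. All arrays of pools A and B lay above all pool C arrays, and these above all total RNA arrays. Pool C minus total RNA was 0.39 at 4 h and 0.45 at 0 h and did not pass (adjusted p = 0.145 and 0.0896). Between pool C and total RNA, 68.5% of all genes at 4 h and 69.8% at 0 h did not overlap. Under median scaling the raw difference passed at both times (0.805 and 0.783, adjusted p = 0.0106 and 0.0136). Pool B exceeded total RNA by 1.28 ± 0.19 at 4 h (SE, n = 2 arrays each, adjusted p = 0.000255) and 1.22 ± 0.19 at 0 h (adjusted p = 0.000343), which are 2.43-fold and 2.33-fold. Pool A exceeded total RNA by 1.00 at 4 h (adjusted p = 0.00101) and 0.81 at 0 h (adjusted p = 0.00373). Pool C differed from pool B by -0.89 at 4 h (adjusted p = 0.00193) and -0.77 at 0 h (adjusted p = 0.00541), and from pool A by -0.61 at 4 h (adjusted p = 0.0153). The call against pool A was lost without the treated pool A array X (-0.40, adjusted p = 0.15) or the treated pool C array N (-0.57, adjusted p = 0.0669). Pool C minus A at 0 h was -0.35 and did not pass (adjusted p = 0.135).

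For H2AJ the raw sign of 4 of these 7 called differences turned with median scaling, which gave 0.12 for pool C minus B at 4 h and 0.61 for pool C minus A at 4 h. In the value table, pool C minus B was -0.05 at 4 h and -0.03 at 0 h (adjusted p = 0.859 and 0.912), and pool B minus total RNA at 4 h was 0.50 (adjusted p = 0.0617). Pool A minus total RNA was lost at 4 h under median scaling (0.20, adjusted p = 0.485), where it turned to -0.30 at 0 h, and at 0 h in the value table (0.21, adjusted p = 0.431). Less the median of all genes the sign held. Pool C minus B at 4 h was -1.04 with quantile normalization, -0.69 with median scaling and -0.37 in the value table. Pool B minus total RNA at 4 h was 1.40, 1.17 and 0.70 on these scales. Pool C minus A at 0 h was close to the median in the value table, at -0.01. HBB, the erythroid marker, was likewise higher in pools A and B than in pool C, at 8.86 to 9.85 in pool A, 8.68 to 9.31 in pool B, 6.35 to 7.80 in pool C and 7.23 to 8.42 in total RNA. Its part in the result was not tested.

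**Figure D3:**
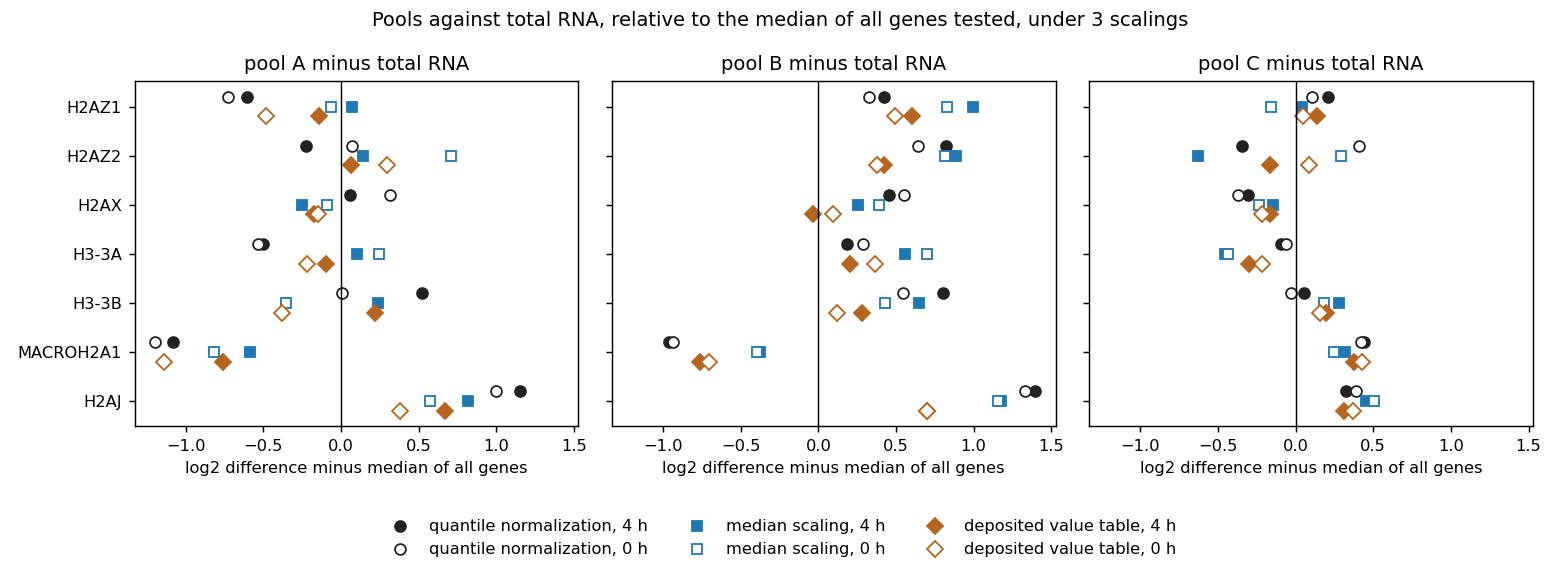
Log2 difference of each pool from total RNA less the median difference of all genes tested, for the 7 genes under quantile normalization, median scaling and the deposited value table; filled symbols are 4 h and open symbols 0 h. MACROH2A1 is left of 0 in pools A and B and H2AJ right of 0 in all pools under all 3 scalings, while H2AZ1 and H3-3A in pool A lie on either side of 0.

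The H2A.Z pair differed in how well it could be measured. H2AZ1 was at 13.36 and 13.21 in pool A at 4 h, against 13.27 and 13.13 at 0 h. It was at 14.30 and 14.40 in pool B at 4 h, against 14.27 and 14.40 at 0 h, and in pool C at 14.36 and 14.28 at 4 h, and 14.22 and 14.36 at 0 h. Every pool A array was below all other arrays. Pool B exceeded pool A by 1.07 ± 0.17 at 4 h (SE, n = 2 arrays each, adjusted p = 0.000707) and 1.14 ± 0.17 at 0 h (adjusted p = 0.000456). Pool C exceeded pool A by 1.03 at 4 h (adjusted p = 0.000212) and 1.09 at 0 h (adjusted p = 0.000131). Pool A differed from total RNA by -0.76 at 4 h (adjusted p = 0.00292) and -0.92 at 0 h (adjusted p = 0.000754). The 8 arrays of pools B and C lay above the 4 total RNA arrays, by differences of 0.17 to 0.30 that did not pass. Pool B minus total RNA at 4 h passed without background correction (0.30, adjusted p = 0.0419) and in the value table (0.40, adjusted p = 0.0418). Pools B and C overlapped.

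Less the median of all genes, H2AZ1 in pool B minus A was 1.05 with quantile normalization, 0.95 with median scaling and 0.76 in the value table at 4 h. Pool C minus A was 0.83 with quantile normalization, but -0.05 with median scaling and 0.27 in the value table, and pool A minus total RNA was -0.60, 0.07 and -0.14. The raw difference of pool A from total RNA at 4 h did not pass under median scaling (-0.55, adjusted p = 0.0657) or in the value table (-0.16, adjusted p = 0.415). Of the H2AZ1 differences, pool B over A was thus the 1 with a call at both times that held its side of the median on all 3 scales.

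H2AZ2 was called in 2 comparisons, both with treated pool B. That pool was higher than treated pool A, where neither array detected the probe, by 1.09 (adjusted p = 0.0131). On the quantile-normalized scale this was at least 1.37-fold. Treated pool C, again with neither array detected, differed from treated pool B by -0.99 (adjusted p = 0.0118), at least 1.65-fold lower on that scale. Such a bound sets pool B's mean against the higher, on each array, of the dim probe's own level and the lowest level among detected probes. It leaves out the spread of the pool B arrays. Of these, N was at 6.03, where the lowest detected level was 6.01. The bounds do not hold in the value table, where the differences were smaller. Both calls of H2AZ2 were lost without the treated pool B array X (adjusted p = 0.134 and 0.13). The first was also lost without the treated pool A array X (adjusted p = 0.11), and the second without the treated pool C array N (adjusted p = 0.0796). In the value table both fell short, with 0.19 for pool B minus A (adjusted p = 0.385) and -0.25 for pool C minus B (adjusted p = 0.162). Pool C minus B was also lost under median scaling (-0.68, adjusted p = 0.0541) and pool B minus A with the compared groups alone (adjusted p = 0.0574). Relative to the median of all genes, H2AZ2 in pool B minus A at 4 h was 1.07 with quantile normalization, 0.77 with median scaling and 0.38 in the value table, and pool C minus B was -1.13, -1.48 and -0.57. At 0 h, pool B minus A was 0.66 and pool C minus B -0.06, and neither passed (adjusted p = 0.11 and 0.89).

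With quantile normalization, the H3.3 pair had different patterns. H3-3A was at 13.91 and 13.85 in pool A at 4 h, against 13.77 and 13.60 at 0 h. It was at 14.51 and 14.71 in pool B at 4 h, against 14.55 and 14.64 at 0 h, and in pool C at 14.48 and 14.54 at 4 h, and 14.29 and 14.55 at 0 h. As for H2AZ1, the 4 pool A arrays were the lowest 4. Pool B exceeded pool A by 0.73 ± 0.18 at 4 h (SE, n = 2 arrays each, adjusted p = 0.00865) and 0.90 ± 0.18 at 0 h (adjusted p = 0.00246). Pool C exceeded pool A by 0.63 at 4 h (adjusted p = 0.00798) and 0.73 at 0 h (adjusted p = 0.00325), and pool A differed from total RNA by -0.66 at 4 h (adjusted p = 0.0079) and -0.73 at 0 h (adjusted p = 0.00421). For H3-3A at 4 h, pool B minus A did not pass without the treated pool B array X (adjusted p = 0.0789), and pool A minus total RNA did not pass without the treated total RNA array N (adjusted p = 0.0542).

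Less the median of all genes, H3-3A in pool B minus A stayed positive at 4 h, with 0.72 under quantile normalization, 0.49 under median scaling and 0.32 in the value table. Pool C minus A of the brightest probe changed sign at 4 h, with 0.43, -0.57 and -0.21. The raw pool B minus A at 4 h did not pass under median scaling (0.59, adjusted p = 0.0944) or in the value table (0.13, adjusted p = 0.636). Pool A minus total RNA was -0.50 at 4 h with quantile normalization, 0.10 with median scaling and -0.10 in the value table. With quantile normalization, the other 2 probes of H3-3A gave pool B above A by 1.39 and 1.18 at 4 h and by 1.41 and 1.28 at 0 h. They gave pool C above A by 1.32 and 1.14 at 4 h and by 1.38 and 1.40 at 0 h. These were larger differences than the brightest probe gave. In pool C minus total RNA at 0 h they gave 0.43 and 0.58 (adjusted p = 0.107 and 0.0273), so the second of them was called, while the brightest gave 0.002.

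H3-3B was at 10.22 and 10.21 in pool B at 4 h, against 10.36 and 9.91 at 0 h. In pool A it was at 10.10 and 9.67 at 4 h, and 9.88 and 9.15 at 0 h, and in pool C at 9.79 and 9.50 at 4 h, and 9.90 and 9.58 at 0 h. At 0 h both pool B arrays lay above the arrays of pools A and C, which overlapped each other. Of all genes at 0 h, 55.7% did not overlap between pools B and A, and 70.6% between pools C and B. The 1 call was pool B over total RNA at 4 h, 0.69 ± 0.26 (SE, n = 2 arrays each, adjusted p = 0.0457), and it did not pass without the filter on dim probes (adjusted p = 0.0698). It was lost without any 1 of its own 4 arrays (adjusted p = 0.105 to 0.176), without any 1 of the untreated total RNA arrays (adjusted p = 0.0595) and without any 1 of the untreated pool C arrays (adjusted p = 0.0513). It was 0.17 under median scaling (adjusted p = 0.65) and 0.09 in the value table (adjusted p = 0.754). After subtracting the median of all genes it was 0.80 with quantile normalization, 0.65 with median scaling and 0.28 in the value table. At 0 h the same difference was 0.43 (adjusted p = 0.195). Other scalings called H3-3B lower in pool A at 0 h, in raw differences that shift with the median of all genes. Pool A minus total RNA was -1.23 under median scaling (adjusted p = 0.00117) and -0.55 in the value table (adjusted p = 0.0352). Pool C minus A was 1.69 (adjusted p = 4.37e-05) and 0.84 (adjusted p = 0.00238). With quantile normalization these were -0.19 and 0.22 and did not pass.

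A ratio of the 2 H3.3 genes within each array was chosen for a test after the values were seen. It was tested on these same arrays, so its p-values are a description only. It was taken after quantile normalization, from the brightest H3-3A probe, and depends on both. The other 2 H3-3A probes gave pool C minus total RNA as 0.36 and 0.38 at 4 h, where the brightest gave -0.03. Under median scaling, pool C minus A was 0.475 for H3-3A and 1.687 for H3-3B at 0 h, and 0.417 and 1.016 at 4 h. In the value table it was 0.313 and 0.843 at 0 h. The ratio was thus lower in pool C than in pool A there, opposite to the values that follow. The log2 ratio, H3-3A minus H3-3B, averaged 4.09 ± 0.29 in pool A, 4.43 ± 0.24 in pool B, 4.78 ± 0.29 in pool C and 4.87 ± 0.18 in total RNA (SD, n = 4 arrays each, both times together). The 4 pool A arrays lay below the 4 total RNA arrays, and the difference was -0.78 (two-sided exact permutation test, p = 0.0286, the smallest that 70 splits allow, 0.0762 after adjustment over 4 tests). Pool C minus A was 0.69 (exact permutation p = 0.0571, adjusted 0.0762) and pool B minus total RNA -0.44 (exact permutation p = 0.0571, adjusted 0.0762). None of the 4 passed after adjustment. The permutation took all arrays as exchangeable, while the ratio was higher on the X array than on the N array in 8 of 8 groups. Within a letter and a time, pool A minus total RNA was negative in 4 of 4 pairs (-1.19 to -0.31), pool B minus total RNA in 4 of 4 (-0.70 to -0.04), and pool C minus A was positive in 4 of 4 (0.50 to 0.89). Pool C minus total RNA was -0.09 (exact permutation p = 0.629). Both genes have near-identical copies elsewhere in the genome and no probe sequence was used here, so other transcripts may add to these probes.

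**Figure D4:**
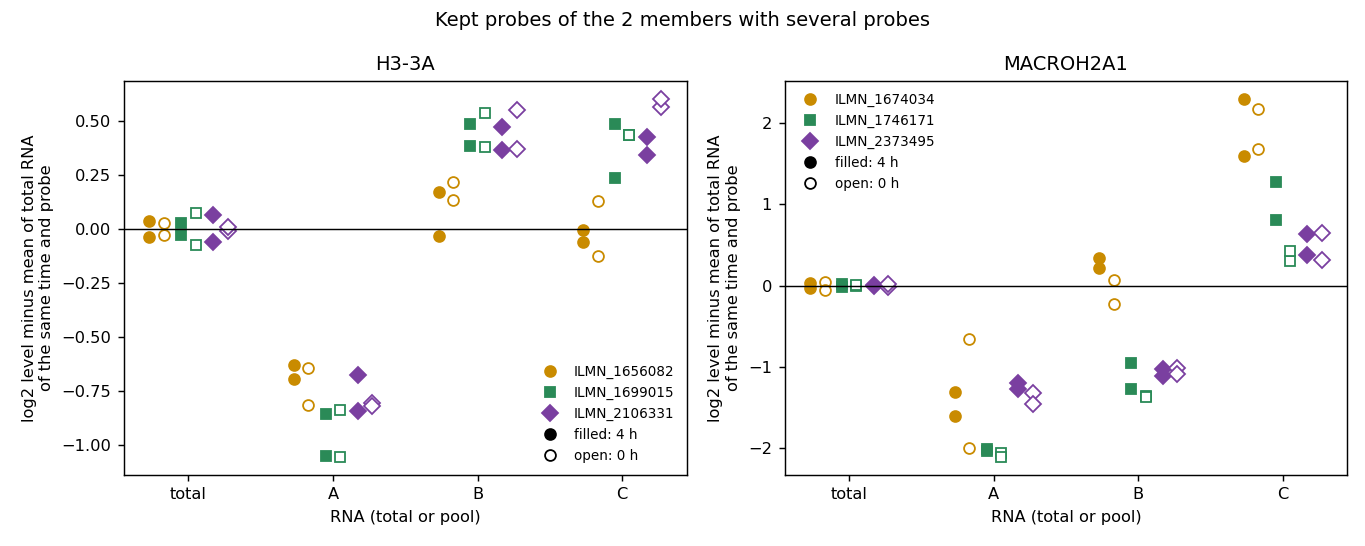
Log2 level of each kept probe of H3-3A and MACROH2A1 on every array less the mean of total RNA of the same time and probe; filled symbols are 4 h and open symbols 0 h. All MACROH2A1 probes are lowest in pool A and highest in pool C, but the dimmest of them does not share the low pool B levels of the other 2.

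H2AX was at 9.28 and 9.63 in pool B at 4 h, against 9.65 and 9.48 at 0 h. It was at 8.60 and 9.42 in pool A at 4 h, against 9.18 and 9.32 at 0 h, and in pool C at 9.03 and 8.71 at 4 h, and 8.91 and 8.73 at 0 h. Pool B did not overlap pool C at either time, as was so for 73.4% of all genes at 4 h and 70.6% at 0 h. The 2 treated pool A arrays lay further apart than any other pair of this gene. The 1 call was pool C below B at 0 h, -0.74 ± 0.25 (SE, n = 2 arrays each, adjusted p = 0.0288), and it was lost when any 1 of those 4 arrays was left out (adjusted p = 0.055 to 0.144). At 4 h the difference was -0.58 (adjusted p = 0.0766). Less the median of all genes, pool C minus B at 0 h was -0.87 with quantile normalization, -0.59 with median scaling and -0.28 in the value table, and its raw value turned to 0.05 with median scaling and was -0.015 in the value table (adjusted p = 0.971). Median scaling also called raw H2AX differences that did not pass with quantile normalization and that shift with the median of all genes. Pool A minus total RNA was -0.87 at 4 h and -0.96 at 0 h (adjusted p = 0.0072 and 0.00297). Pool C minus A was 1.08 and 1.01 (adjusted p = 0.001 and 0.00164), and pool B minus A at 0 h was 0.95 (adjusted p = 0.00696). The transcript of H2AX exists in a stem-loop and in a polyadenylated form, which these values do not part.

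Other histones with polyadenylated transcripts had a kept probe in 3 of 5 cases (H1-10, CENPA and H3-5). H1-10, a linker histone, was the 1 of them called with dexamethasone. Its log2 difference, 4 h minus 0 h, was 1.23 in total RNA, 1.16 in pool A, 1.28 in pool B and 1.73 in pool C (SE 0.19, n = 2 arrays each, adjusted p = 0.0207, 0.0149, 0.0378 and 0.00248). Under median scaling the difference was 1.06, 1.46, 1.18 and 1.51, and that of total RNA and that of pool B no longer passed (adjusted p = 0.153 and 0.181). In the value table that of pool B alone no longer passed (0.94, adjusted p = 0.0822). CENPA, the histone H3 of centromeres, was, like H2AJ, higher in pool B than in total RNA and in pool C with quantile normalization. It was higher in pool B than in total RNA by 1.57 at 4 h and 1.55 at 0 h, and pool C differed from pool B by -1.58 at 4 h and -1.31 at 0 h (adjusted p = 0.00201 or less). The last 2 calls were lost under median scaling (-0.62 and -0.56, adjusted p = 0.115 and 0.162) and in the value table (-0.70 and -0.55, adjusted p = 0.111 and 0.214). Pool B minus total RNA of CENPA at 4 h was also lost in the value table (0.86, adjusted p = 0.0622). Pool C minus A of CENPA, -0.90 at 4 h and -0.53 at 0 h, turned to 0.34 at 4 h and 0.94 at 0 h (adjusted p = 0.0173) under median scaling. Relative to the median of all genes, pool C minus B of CENPA at 4 h was -1.72 with quantile normalization, -1.42 with median scaling and -1.01 in the value table. H3-5, a gene copied from H3-3B and described in testis, was higher in pool B than in pool A by 2.69 at 4 h and 1.99 at 0 h (adjusted p = 6.86e-05 and 0.000685), and by 2.67 at 4 h less the median of all genes, against 3.04 with median scaling and 2.34 in the value table.

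The 21 replication-dependent histone genes with a kept probe are the stem-loop class that sets the replacement histones apart. Of them, 0 were called with dexamethasone in any RNA. In pool A, 12 were higher and 1 lower than in total RNA at 4 h, and in pool B 13 were higher and 0 lower, with medians of 0.91 and 1.13 against -0.16 and -0.12 over all genes. Of all genes, 18.7% were higher and 27.2% lower in pool A, and 18.5% and 25.7% in pool B. Less the median of all genes these list medians were 1.07 and 1.25 with quantile normalization, 1.12 and 1.23 with median scaling and 0.53 and 0.55 in the value table. H2AC20 in pool B was above total RNA by 1.66 at 4 h and 1.86 at 0 h (adjusted p = 0.000104 and 5.65e-05), and H2BC9 in pool A by 1.76 and 1.49 (adjusted p = 0.000333 and 0.000922). Histone genes of this class are near copies of each other, so a probe may read several of them. In pool C against B at 4 h, 0 of the 21 were higher and 12 lower, with a median of -0.95 against 0.14 over all genes. Of all genes, 27% were higher and 18.9% lower. H2AC20, at -1.24 there, lost its call under median scaling (-0.32, adjusted p = 0.226) and in the value table (-0.35, adjusted p = 0.181). H2BC9, at -1.92, kept it (-1.54 and -0.58, adjusted p = 0.000123 and 0.00975). The 7 replacement histones had medians of -0.39 in pool A and 0.34 in pool B against total RNA at 4 h, and of -0.57 in pool C against B. H2AJ, like H2AC20, was higher in pools A and B than in total RNA with quantile normalization, while MACROH2A1, H2AZ1 and H3-3A were lower in pool A. H2AC20 kept these calls under both other scalings and H2AJ did not.

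The chaperones and complexes that handle these histones were measured for 13 of 15 genes of H2A.Z deposition and removal, 7 of 8 of H3.3 deposition, 15 of 15 of histone supply and assembly, 10 of 13 around phosphorylated H2AX and 10 of 11 of stem-loop processing. With dexamethasone, 0 genes of these 5 lists were called in any RNA. In histone supply and assembly, against total RNA at 4 h, 0 were higher and 11 lower in pool A, and 0 higher and 13 lower in pool B, with medians of -1.14 and -1.19 against -0.16 and -0.12 over all genes. The shares of all genes with quantile normalization are those given for the replication-dependent histones. Under median scaling 0 were higher and 14 lower in each, and with the value table, 0 were higher and 10 and 14 lower. These are raw counts that shift with the median of all genes. The shares of all genes under these other scalings are not given here, so the counts add nothing particular to the list. SUPT16H, a subunit of the nucleosome reorganizer FACT, differed from total RNA by -2.41 in pool A, -2.36 in pool B and -2.01 in pool C at 4 h (adjusted p = 6.4e-05 or less). SSRP1, the other FACT subunit, differed from total RNA by -2.01 in pool A at 4 h (adjusted p = 0.000156) and was 2.41 higher in pool C than in pool A (adjusted p = 1.6e-05). RBBP7, a histone-binding chaperone subunit, was 2.17 higher in pool C than in pool A at 4 h (adjusted p = 7.8e-06).

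Around H2AX, 0 genes were higher and 9 lower in pool A than in total RNA at 4 h, with a median of -1.27 against -0.16 over all genes, and 0 were higher and 8 lower at 0 h. Of all genes, 27.2% were lower and 18.7% higher in pool A than in total RNA at 4 h, and 29.9% were lower and 18.7% higher at 0 h. MDC1, which binds phosphorylated H2AX, differed from total RNA by -1.73 in pool B at 4 h and by -2.25 in pool A at 0 h (adjusted p = 0.000112 and 9.9e-06). PRKDC, a kinase that phosphorylates it, differed from total RNA by -2.19 in pool C at 4 h and -2.35 at 0 h (adjusted p = 5.93e-05 and 4.02e-05). In the H2A.Z list, 1 of 13 was higher and 4 lower in pool A than in total RNA at 4 h, where 45.9% of all genes were called. In pool B, 2 were higher and 5 lower at 4 h, where 44.1% of all genes were called. With so few genes, these counts show nothing particular to the list. RUVBL1, an ATPase of the SRCAP and EP400 complexes, was 2.48 higher in pool C than in pool A at 4 h (adjusted p = 6.18e-06), while MRGBP, a small subunit of the EP400 complex, differed by -2.28 (adjusted p = 1.86e-06). In the H3.3 list, 0 of 7 were higher and 2 lower in pool A than in total RNA at 4 h, against the same 45.9% of all genes. UBN1, a subunit of the HIRA complex that deposits H3.3, differed from total RNA by -1.81 in pool B (adjusted p = 0.00026). The values named here for SUPT16H, SSRP1, RBBP7, MDC1, PRKDC, RUVBL1, MRGBP and UBN1 kept their sign and their call under median scaling and in the value table.

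As a description over the 8 group means, without a test, H2AZ1 and H3-3A ran closest together among the 7 genes (Pearson r = 0.965) and MACROH2A1 and H2AJ furthest apart (r = -0.764). These points share arrays and normalization. Among 6509 genes detected on all 16 arrays, those with the pattern most like MACROH2A1 were NUDT21 (r = 0.998), HMGB1 (r = 0.997) and SIDT2 (r = 0.997). Those most like H2AZ1 were MAP3K11, ATP5MC2 and ATP5F1D (r = 0.989 to 0.992), those most like H3-3A were NDUFB6, INO80D and ARHGDIB (r = 0.975 to 0.986), and those most like H2AJ were HINT3, CNPY3 and UXT (r = 0.984 to 0.990). For H2AX they were TRAK2, PDCD5 and TMEM250 (r = 0.985 to 0.988). H3-3B, with ATP6V1G2, CERK and MTFR1L (r = 0.942 to 0.966), and the dim H2AZ2, with FAM174B, MCUB and AP1S2 (r = 0.905 to 0.916), had looser matches.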

How the data were processed

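The deposited table holds 47323 probes on 16 arrays, with a linear bead intensity and a detection p-value per probe and array, not normalized, per the file headers. A second deposited table holds log2 values that the authors had normalized between arrays, by a method not given in the sources used here; its column medians were 7.21 to 7.41. Arrays were grouped by the code in their column names; the letters N and X there only name the 2 arrays of a group.

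Intensities were background-corrected with limma 3.58.1 in R 4.3.3 (normexp fitted from the detection p-values, offset 16), quantile normalized and put on the log2 scale. Probes with a detection p-value under 0.01 on at least 2 arrays were kept (17269). Probe genes came from the platform annotation, where 30121 probes were annotated and 30113 had 1 symbol, of which 30092 matched RefSeq symbols. The kept probe of highest mean stood for each of 10163 genes. One limma fit over 8 group means (8 residual and 5.36 prior degrees of freedom) gave 20 comparisons, each adjusted by Benjamini-Hochberg. The code was tested on simulated data. The number of arrays, 2 per group, limits the precision.

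The 7 genes and all lists were chosen with earlier results of these data known. Named genes are the 7, with their other probes; from each pathway list and family of comparisons, at most the 4 of largest absolute log2 change among those past the threshold, with H1-10 always; and, for each of the 7, the 3 genes of most similar group means. The replication-dependent histones are a comparison list. Alternatives were other background, filter, scaling and probe rules, the value table, the compared groups alone, arrays left out and the array letter as a block. The within-array H3.3 ratio, its pairs by letter and the differences less the median of all genes were chosen after seeing the data.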

Additional observations from a re-analysis of the deposited data

How the results depend on the processing

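Of 31 called differences among 140, 31 were also called with the same sign without background correction, with an offset of 50 and with the mean of a gene's probes, 18 under median scaling and 16 in the value table. Median scaling turned 5 called signs: H2AJ to -0.30 in pool A minus total RNA at 0 h, 0.61 in pool C minus A at 4 h, 0.12 in pool C minus B at 4 h and 0.028 at 0 h, and H2AX to 0.053 in pool C minus B at 0 h. The value table, with or without a replicate block, turned H3-3A in pool C minus A at 4 h to -0.039. The cause was not tested. Calls between pools at 0 h numbered 8, against 13 under median scaling and 4 without the 4 untreated X arrays. At 4 h they numbered 10, against 4 in the value table, 4 there with a replicate block, and 6 with the compared groups alone, where fewer arrays enter each fit. The count for dexamethasone was 0, against 1 in the value table with a replicate block (MACROH2A1 in pool A, 0.58, adjusted p = 0.0449). Leaving out 1 array at a time gave 0 calls for dexamethasone and for the interactions, 5 to 7 for pools against total RNA at 4 h, 5 to 6 at 0 h, 7 to 11 between pools at 4 h and 7 to 9 at 0 h. MACROH2A1 in pool C minus total RNA, not called, passed without background correction (adjusted p = 0.00901 at 4 h and 0.0115 at 0 h) and with the mean of its probes (0.000689 and 0.00295).

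With the array letter as a replicate block, 36 were called, the same 31 among them. The others were H2AZ2 in pool B minus total RNA at 4 h, H3-3B in pool B minus A at 0 h (adjusted p = 0.0279) and in pool C minus B at 4 h (0.0259), and MACROH2A1 in pool C minus total RNA at both times. Deviations of same-letter arrays correlated at 0.262 to 0.353 between treated and untreated samples of one RNA, but with 2 letters this does not show that they pair the samples. A slide block was not run, as no slide is named in the files. H2AZ2, detected on 5 of 16 arrays, is limited by its signal over background.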

Other observations

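Among genes that process stem-loop histone transcripts, 10 of 11 were measured and 0 were called with dexamethasone. LSM10, a subunit of the U7 snRNP that cuts these transcripts, had a log2 difference, pool C minus pool A, of -3.88 at 4 h and -4.17 at 0 h (limma, adjusted p = 4.09e-08 and 1.82e-08). SLBP, the stem-loop binding protein, was higher in pool C than in pool A by 2.37 at 4 h and 2.03 at 0 h (adjusted p = 2.1e-06 and 7.25e-06). Both calls held with the same sign under median scaling and in the value table.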
